A study of Mus musculus with 2 samples.

Results

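S100a4, S100a6, S100a10, S100a11, S100a13, Lgals1 and Vim were followed in single cells sorted from lung as γδ T cells. The members were the rows of the count tables that carry these 7 symbols among 32285 gene rows, and each symbol had 1 row. Of the 7, 5 belong to the S100 family, Lgals1 encodes galectin-1 and Vim encodes vimentin. Both libraries were labelled as lung γδ T cells, although some cells carried B cell or myeloid genes, and the mice were uninfected and 5 to 7 weeks old. For the WT library Vγ1-negative cells were taken from the strain C57BL/6NCrl, and for the KO library Vγ1-positive cells from the strain labelled B6.Cg-Tcrgtm1lku(B6.Vg4-/-Vg6-/-), that is, without Vγ4 and Vγ6. The number of mice behind each library is not stated in the sources at hand. Each group was 1 library, so there was no replicate and no test was run. Genotype, sorted chain, library and the share of cells with Y-linked reads, given below, differed together and cannot be told apart.

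S100 proteins are small EF-hand proteins that bind calcium, change shape and then dock onto partners such as annexins and cytoskeletal motors. Galectin-1 is a lectin that binds β-galactosides on glycoproteins and is secreted without a signal peptide. Vimentin builds the intermediate filaments of mesenchymal cells and leukocytes, and these transcripts are known to be more abundant in effector and memory T cells than in naive ones. A further 3 transcripts were used to split the cells. Tmem176b encodes a transmembrane protein known from γδ T cells that make interleukin-17 (IL-17), Ly6c2 encodes a surface antigen of monocytes and memory T cells, and Ccr9 encodes the receptor for the chemokine Ccl25 on thymocytes and gut-homing T cells.

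The S100 members lie on mouse chromosome 3 of GRCm38, all on the plus strand and all protein-coding in the GENCODE annotation. S100a13 (ENSMUSG00000042312, 90514435 to 90524581), S100a4 (ENSMUSG00000001020, 90603771 to 90606045) and S100a6 (ENSMUSG00000001025, 90612882 to 90624181) lie in the main S100 cluster, and 6837 bases separate the end of S100a4 from the start of S100a6. S100a11 (ENSMUSG00000027907, 93520488 to 93526287) and S100a10 (ENSMUSG00000041959, 93555080 to 93564643) lie 28793 bases apart and 2896307 bases beyond S100a6. Lgals1 (ENSMUSG00000068220) lies on chromosome 15 from 78926725 to 78930465, and Vim (ENSMUSG00000026728) on chromosome 2 from 13573927 to 13582826. No annotated gene overlapped 6 of the 7 members. S100a4 is overlapped on the same strand by the predicted gene Gm42674, and reads from the shared part cannot be told apart.

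Promoter sequences of 5 of the 7 members were found in RefSeq (GRCm38.p6), each from 250 bases before to 50 bases after the annotated start. S100a10 and Lgals1 had no entry. The promoters of S100a4 and S100a6, the members whose levels varied most between cell states, are shown with those of S100a11 and S100a13, which varied less, because all 4 genes share the chromosome and the strand. Capitals mark matches to 5 motifs searched on both strands, the TATA box TATAAA, the AP-1 element TGANTCA, the E-box CACGTG, the GC box GGGCGG and the nuclear receptor half-site AGGTCA, and no match overlapped another.
S100a4 (chr3:90603520-90603819, plus strand): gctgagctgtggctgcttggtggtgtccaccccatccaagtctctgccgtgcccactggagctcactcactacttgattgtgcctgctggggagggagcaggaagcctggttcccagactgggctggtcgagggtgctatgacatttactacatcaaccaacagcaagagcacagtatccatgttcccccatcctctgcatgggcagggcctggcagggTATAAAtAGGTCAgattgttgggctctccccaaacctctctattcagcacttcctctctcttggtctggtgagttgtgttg
S100a6 (chr3:90612644-90612943, plus strand): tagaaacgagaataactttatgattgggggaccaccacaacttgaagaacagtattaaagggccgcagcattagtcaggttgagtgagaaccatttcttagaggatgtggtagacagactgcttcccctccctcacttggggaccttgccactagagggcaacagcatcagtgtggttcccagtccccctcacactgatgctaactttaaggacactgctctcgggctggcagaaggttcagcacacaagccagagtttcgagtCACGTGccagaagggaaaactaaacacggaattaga
S100a11 (chr3:93520246-93520545, plus strand): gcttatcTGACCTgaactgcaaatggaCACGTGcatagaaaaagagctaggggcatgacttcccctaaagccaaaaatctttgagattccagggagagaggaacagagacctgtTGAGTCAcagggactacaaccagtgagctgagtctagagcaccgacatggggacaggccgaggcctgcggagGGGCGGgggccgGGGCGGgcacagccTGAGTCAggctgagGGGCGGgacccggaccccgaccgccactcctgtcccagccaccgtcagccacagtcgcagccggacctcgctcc
S100a13 (chr3:90514185-90514484, plus strand): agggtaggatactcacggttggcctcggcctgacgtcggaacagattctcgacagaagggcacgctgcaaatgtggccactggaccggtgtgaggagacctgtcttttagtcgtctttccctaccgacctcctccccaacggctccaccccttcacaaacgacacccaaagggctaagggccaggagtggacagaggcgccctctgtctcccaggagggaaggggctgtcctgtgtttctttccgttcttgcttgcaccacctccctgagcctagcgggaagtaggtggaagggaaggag

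The S100a4 promoter held a TATA box that begins 31 bases before the start, followed by a nuclear receptor half-site that begins 24 bases before it. S100a6 held an E-box that begins 15 bases after the start. S100a11 held AP-1 elements beginning 136 and 38 bases before the start, GC boxes beginning 64, 52 and 24 bases before it, an E-box beginning 223 bases and a half-site on the minus strand beginning 243 bases before it. None of the 5 motifs was found in the S100a13 window, and the Vim window held a TATA box that begins 32 bases before the start. Among 32851 RefSeq promoters of this length, 13.6% held TATAAA, 7.81% TGANTCA, 7.15% CACGTG, 35.7% GGGCGG and 16.3% AGGTCA. The motifs were chosen after the sequences had been seen, and a match is a description of letters and not of a bound site.

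Reads of the γ chain variable genes defined 3 groups of cells. After the filter on cells, the WT library had 630 cells with Tcrg-V6 as the only one of Tcrg-V1, Tcrg-V4 and Tcrg-V6, and 424 cells with only Tcrg-V4. In the KO library 2880 cells had Tcrg-V1. The KO library had no Tcrg-V6 UMI (unique molecular identifier), but 990 of its cells, 14.9%, had a Tcrg-V4 UMI against 536 WT cells, 21.4%. The Tcrg-V4 reads go against the label, whereas the lack of Tcrg-V6, read in 754 WT cells, goes with it. Whether the Tcrg-V4 RNA stands for a receptor was not tested. The library is therefore called KO-labelled here, and each direction below rests on that label. Tcrg-V1 was also read in 196 WT cells, which the sort should have left out, and none of them entered a group. The filter kept 2505 WT and 6634 KO-labelled cells with medians of 3288 and 3521 UMIs, and 23 barcodes occurred in both libraries. A UMI of the T cell markers Cd3e, Cd3d, Cd3g or Trdc was read in 90.9% of the WT library and 96.5% of the KO-labelled one. The share with a Y-linked UMI was 24.5% in the WT library and 0.467% in the other, so the libraries also differed in male cells. Leaving out cells with such UMIs moved the member median from -0.95 to -0.88 for KO-labelled over Tcrg-V6 cells. A male cell can lack a Y-linked UMI at this depth, so this step cannot show the part of sex.

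Levels are given as CPM, the number of counts scaled to a fixed total, from the UMIs of a gene and of all genes summed over the cells of a group. Bracketed ranges are 95% intervals that cover counting error only, not the variation between cells or mice. Levels were compared within a gene and not between genes.

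S100a4, whose protein binds non-muscle myosin heavy chain, stood at 1158 CPM (1115 to 1201) in WT Tcrg-V6 cells, at 364 CPM (336 to 395) in WT Tcrg-V4 cells and at 506 CPM (494 to 518) in KO-labelled Tcrg-V1 cells. S100a6 (calcyclin), known to bind the calcyclin-binding protein Cacybp, had 2744, 902 and 1093 CPM in the same order. S100a10, the partner of annexin A2 and the family member that does not bind calcium, had 1851, 874 and 1114 CPM. The annexin-binding S100a11 had 1666, 659 and 861 CPM. By CPM of the sums, the Tcrg-V6 cells were highest for these members, the KO-labelled cells came next and the Tcrg-V4 cells were lowest, and no intervals overlapped. Lgals1 had 1425, 544 and 738 CPM and Vim had 789, 317 and 395 CPM, in the same order. S100a13, known for carrying fibroblast growth factor 1 and interleukin-1α out of cells, had 251 CPM (232 to 272), 174 CPM (155 to 196) and 236 CPM (228 to 244), so that Tcrg-V6 and KO-labelled cells overlapped. The order of the sums did not hold for the median cell in S100a6. Its median was 2.19 UMIs per 10000 in KO-labelled and 4.61 in Tcrg-V4 cells. For S100a10 (8.38 and 6.69) and S100a11 (5.85 and 4.83) the KO-labelled median was the higher one, and for S100a4 both were 0.

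**Figure D1:**
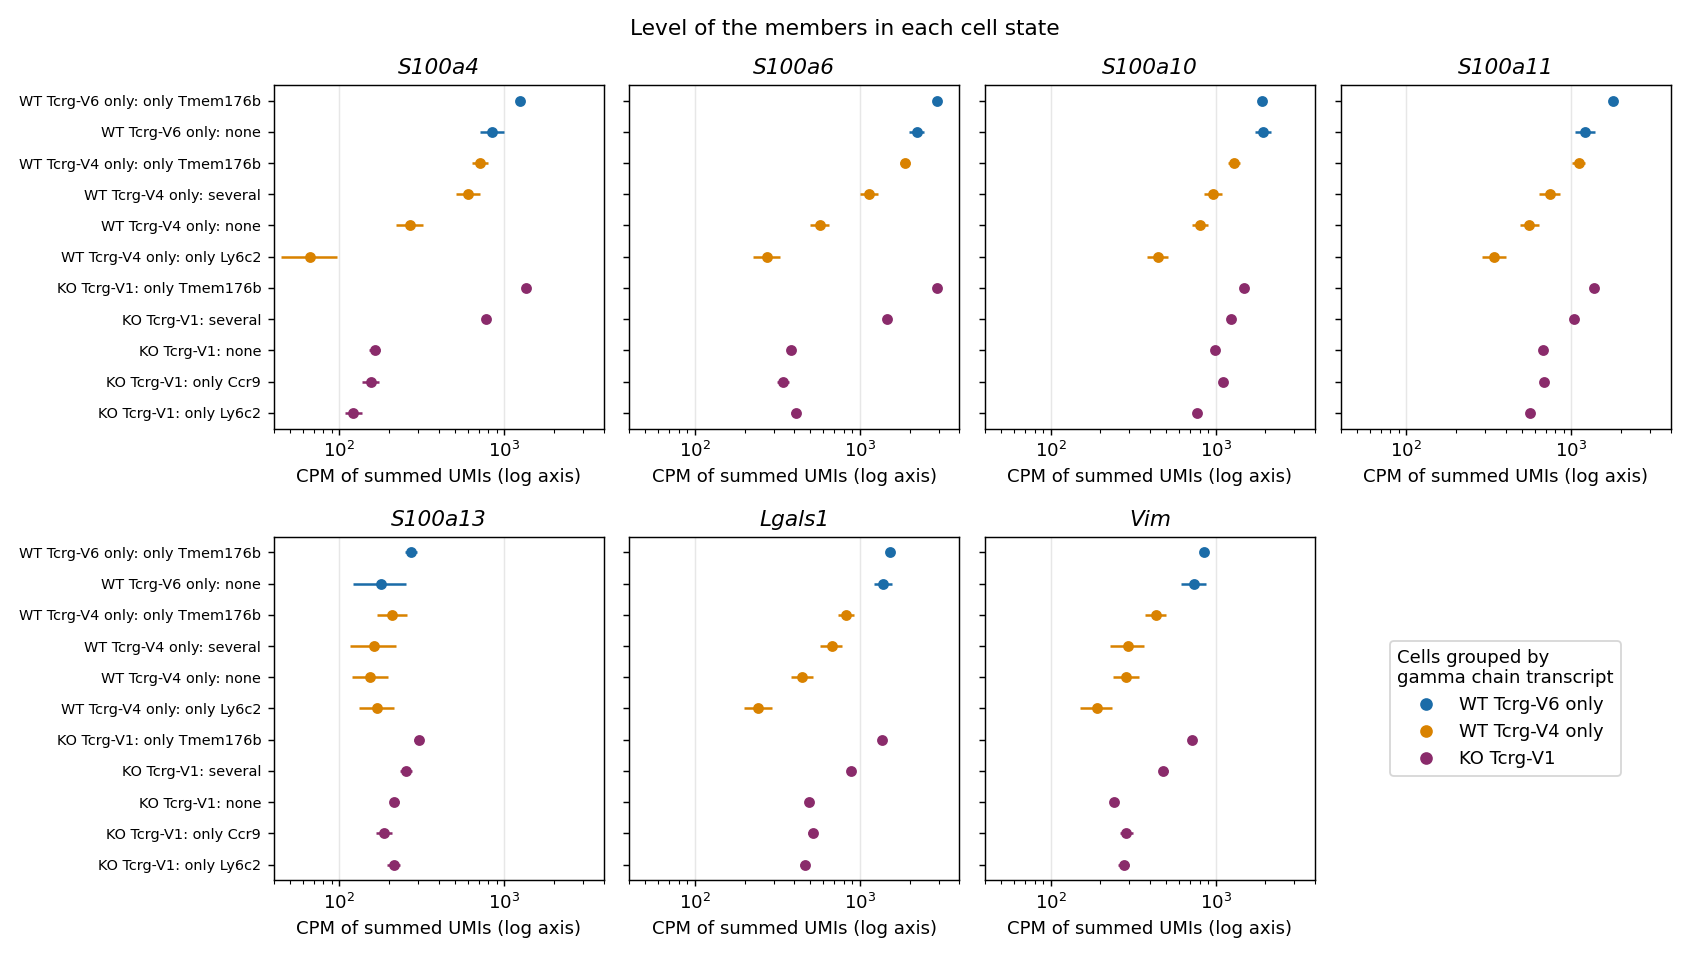
CPM of each member (horizontal log axis, 95% Poisson interval of counting error as bars, hidden where smaller than the point) in the 11 cell states of at least 50 cells, coloured by γ chain group. For S100a4 the states run from 66.6 CPM in Tcrg-V4 cells with only Ly6c2 to 1354 CPM in KO-labelled cells with only Tmem176b, whereas S100a13 stays between 154 and 302 CPM.

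Within the WT library, 6 of the 7 members were at least 2-fold higher in Tcrg-V6 than in Tcrg-V4 cells, where 5.53% of the 8449 genes compared passed that fold in that direction and 5.28% in the other. The median log2 ratio of the members was 1.34 against -0.02 over all genes compared. It was 1.67 for S100a4 (1.54 to 1.80), 1.60 for S100a6 (1.52 to 1.69), 1.39 for Lgals1 (1.28 to 1.5) and 1.34 for S100a11 (1.24 to 1.44). Vim followed at 1.31 (1.17 to 1.46) and S100a10 at 1.08 (1.0 to 1.17). S100a13 did not reach the fold, at 0.53 (0.32 to 0.73). The summed CPM of 8 immediate-early and heat-shock genes (Fos, Jun, Hspa1a and others), known to respond to tissue handling and called handling genes here, was close in both groups, 4870 and 4986. The 12 myeloid markers (Lyz2, Csf1r and others) summed to 11.9 CPM in Tcrg-V6 cells, with 9 of the 12 read and C1qc, Clec10a and Adgre1 at 0, and to 297 CPM in Tcrg-V4 cells. Of 492 such UMIs in Tcrg-V4 cells 456 were Lyz2, and 252 came from 1 cell. Leaving out cells with other-lineage markers kept the median at 1.36.

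For shares of cells with a UMI, cells were brought to a common depth of 2000 UMIs by random thinning, and 591, 398 and 2753 cells were deep enough. S100a4 was then read in 79.9% of Tcrg-V6 cells (76.4 to 83.0), and in 39.9% (35.1 to 44.9) and 33.9% (32.1 to 35.7) of the Tcrg-V4 and KO-labelled Tcrg-V1 cells. Without thinning the shares were 86.5%, 48.1% and 42.2% at median depths of 3645.5, 3436.5 and 4186 UMIs. For S100a4 and S100a6 the shares in KO-labelled cells were below those in Tcrg-V4 cells while the CPM was above, so no order is read from these shares. S100a6 was read in 91.7%, 53.5% and 46.6% of thinned cells (92.4%, 60.8% and 55.1% without thinning), and Lgals1 in 82.7%, 44.2% and 54.1% (89.0%, 59.2% and 67.4%). As a check of free RNA, S100a4 and Lgals1 were each read in 0 of 13 thinned WT cells with B cell genes and no T cell UMI, which allows a share of up to 23.1% (3 counts of 13). Those B cells, 25 before thinning, had a median of 2134 UMIs, and Vim was read in 7 of the 13, S100a11 in 4 and S100a10 in 3. Of 8 such KO-labelled cells (12 before thinning, median 2588.5 UMIs), S100a4 was read in 1, Lgals1 in 0 (up to 37.5%) and S100a10 in 6. S100a11, S100a13 and Vim were each read in 3 of these 8. No shares of T cells are given for S100a10, S100a11 and Vim, which these cells also carried. The S100a13 shares given below carry the same limit.

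Together the 7 members made up a median of 18 of 2000 UMIs in Tcrg-V6 cells (quartiles 12 and 26), 5 in Tcrg-V4 cells (2 and 11) and 6 in KO-labelled cells (3 and 13). At least 20 of 2000 UMIs were found in 42.3% of Tcrg-V6 cells, 8.79% of Tcrg-V4 cells and 12.8% of the KO-labelled Tcrg-V1 cells. The spread within the KO-labelled cells was wide and differed by Tmem176b. KO-labelled cells with only Tmem176b had a median of 17 UMIs (10 and 25), whereas the cells with only Ly6c2 had 4 (2 and 7), those with only Ccr9 had 5 (3 and 8), and those with none of the transcripts had 4 (2 and 7). In Tcrg-V6 cells with only Tmem176b the median was 19 UMIs (13 and 27). The thinned cells with B cell genes and no T cell UMI had a median of 3 UMIs of the members in both libraries (13 WT and 8 KO-labelled cells).

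**Figure D2:**
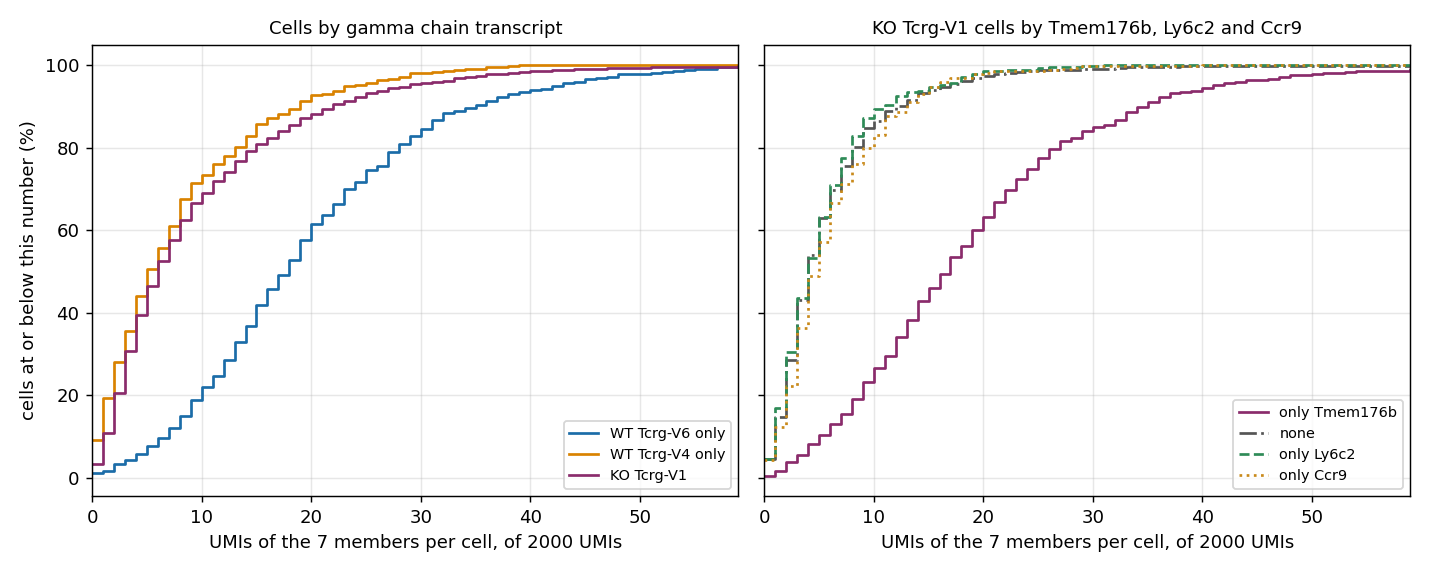
Cumulative share of cells (vertical axis, percent) with at most a given number of UMIs of the 7 members among 2000 UMIs per cell (horizontal axis). Left, the Tcrg-V6 curve lies to the right of both other groups, with medians of 18, 5 and 6 UMIs. Right, KO-labelled cells with only Tmem176b (median 17) lie apart from those with none, only Ly6c2 or only Ccr9 (medians 4, 4 and 5).

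Tmem176b was read in 911 of the KO-labelled Tcrg-V1 cells and not in 1969. S100a4 had 1210 CPM (1178 to 1242) with Tmem176b and 148 CPM (140 to 156) without it, a log2 ratio of 3.03 (2.95 to 3.12). S100a6 had 2505 CPM (2460 to 2552) against 372 CPM (360 to 385), a log2 ratio of 2.75 (2.69 to 2.81). Cells with Tmem176b were far above the others for this pair. Lgals1 followed at a log2 ratio of 1.35 (1.29 to 1.41), Vim at 1.34 (1.26 to 1.41) and S100a11 at 1.01 (0.96 to 1.06). S100a10 with 0.57 (0.52 to 0.62) and S100a13 with 0.46 (0.35 to 0.56) were higher by less than 2-fold. Thus 5 of 7 members passed 2-fold, where 6.37% of 10540 genes did (5.19% were lower by that fold), and the member median was 1.34 against -0.08 over all genes. S100a4 was read in 74.4% of thinned cells with Tmem176b (71.3 to 77.2) and 14.6% without (13 to 16.3), or 84.4% and 22.7% before thinning.

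Other measures moved with Tmem176b in these cells. The median depth was 4542 UMIs with and 3967 UMIs without it. Handling genes summed to 4554 CPM and 2824 CPM. Myeloid markers summed to 81.6 CPM with Tmem176b (11 of 12 read, 6 of 911 cells with at least 2 of them) and 12.4 CPM without it. With cells of other lineages left out the member median was 1.28. The part of depth and of handling genes in the difference was not tested.

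WT Tcrg-V4 cells divided along the same transcript, 171 with and 253 without Tmem176b. S100a4 stood at 710 CPM (646 to 779) with it and 153 CPM (130 to 179) without it, a log2 ratio of 2.22 (1.95 to 2.49), and S100a6 at 1683 and 424 CPM, 1.99 (1.83 to 2.15). S100a11 had a log2 ratio of 1.13 (0.95 to 1.30), Lgals1 0.93 (0.74 to 1.12), S100a10 0.81 (0.65 to 0.96) and Vim 0.50 (0.25 to 0.75). S100a13 was at 0.25, with an interval from -0.09 to 0.60. In this comparison 3 of 7 members were at least 2-fold higher, where 4.38% of 6272 genes were and 7.27% were lower. Whether these ratios differ from those in the KO-labelled cells was not tested. In cells without Ly6c2 and Ccr9 on both sides the S100a4 ratio was 1.42 in Tcrg-V4 cells and 3.05 in KO-labelled cells. Handling genes summed to 6740 CPM with and 3911 CPM without Tmem176b. Myeloid markers summed to 187 CPM with it (4 of 12 read, 115 of 118 UMIs from 1 cell) and 364 CPM without it (6 of 12 read, 252 of 374 UMIs from 1 cell), and B cell markers to 50.8 and 107 CPM. With cells of other lineages left out the member median was 0.95.

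Each of the members was also higher, bin by bin, in KO-labelled cells with more Tmem176b UMIs. S100a4 there had 148, 546, 1166 and 1689 CPM at 0, 1, 2 to 4 and at least 5 Tmem176b UMIs, from 1969, 220, 407 and 284 cells. S100a6 had 372, 1177, 2321 and 3590 CPM, and Vim had 260.5, 336, 567 and 980 CPM, over the same cells. From the first to the last bin Lgals1 went from 484 to 1565 CPM and S100a10 from 957 to 1670 CPM. S100a11 went from 641 to 1594 CPM and S100a13 from 210 to 314 CPM. In WT Tcrg-V6 cells S100a4 stood at 745, 982, 1159 and 1279 CPM from 73, 64, 263 and 230 cells. S100a10 hardly differed there, at 1690 CPM (1519 to 1875) with no Tmem176b UMI and 1833 CPM (1750 to 1918) with at least 5. In WT Tcrg-V4 cells S100a4 had 153, 607, 769 and 725 CPM and S100a13 had 162, 218, 189 and 142 CPM from 253, 59, 98 and 14 cells, so neither was highest in the last bin. S100a10, S100a11 and Vim were not highest there either, whereas S100a6 and Lgals1 were, at 2063 and 977 CPM. Deeper cells hold more UMIs of any gene, and the median depth of the KO-labelled bins was 3967, 3893, 4454 and 5095 UMIs.

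**Figure D3:**
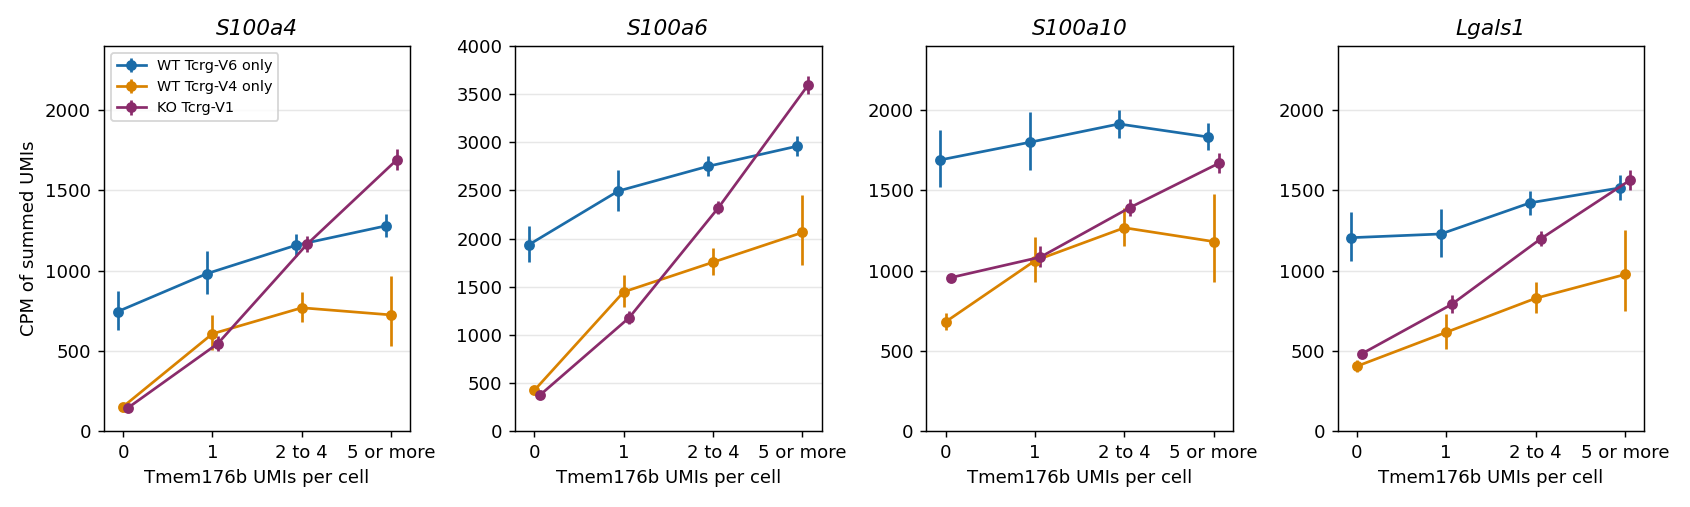
CPM of S100a4, S100a6, S100a10 and Lgals1 (vertical axis, from 0; bars are 95% Poisson intervals of counting error) against the number of Tmem176b UMIs per cell, in 4 bins. KO-labelled cells run from 148 to 1689 CPM for S100a4, and Tcrg-V6 cells start at 745 CPM with no Tmem176b UMI. The last Tcrg-V4 bin holds 14 cells.

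By CPM, the members except S100a13 were higher in Tcrg-V6 cells in which no Tmem176b was read than in both other groups without it. S100a13 was at 166 CPM (116 to 231) against 162 in Tcrg-V4 and 209.6 CPM in KO-labelled cells. All genes were not compared between these cells, so how common this order is was not tested. These 73 cells had 745 CPM of S100a4 (633 to 871), against 153 CPM in such Tcrg-V4 cells and 148 CPM in such KO-labelled cells. Lgals1 stood at 1206 CPM (1062 to 1364) against 405 and 484 CPM. The median over cells of S100a10 was 6.25 UMIs per 10000, below the 7.34 of KO-labelled cells, and that of S100a11 was 4.13 against 4.46. The per-cell spread of these Tcrg-V6 cells was wide, with a median of 9.5 of 2000 UMIs for the 7 members and quartiles of 2 and 23.25. Of the 56 deep enough, 35.7% had fewer than 5 such UMIs and 28.6% had at least 20. Their median depth of 2638 UMIs was below the 3726 UMIs of Tcrg-V6 cells with Tmem176b, and the part of depth in missing Tmem176b was not tested.

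When only cells with Tmem176b were compared, KO-labelled and Tcrg-V6 cells lay close together by CPM. S100a4 had 1210 CPM in KO-labelled and 1196 CPM in Tcrg-V6 cells, a log2 ratio of 0.02 with an interval from -0.05 to 0.08. Over all cells of the groups that ratio was -1.19 (-1.26 to -1.13). S100a6 was at -0.17 (-0.22 to -0.13) instead of -1.33, Lgals1 at -0.23 (-0.29 to -0.16) instead of -0.95 and Vim at -0.29 (-0.37 to -0.20) instead of -1.0. S100a10, at -0.39 (-0.45 to -0.34), and S100a11, at -0.42 (-0.47 to -0.36), had the lowest ratios among the members in these cells, and S100a13 was at 0.15 (0.01 to 0.29). Over all cells 3 of 7 members were at least 2-fold lower in KO-labelled cells, where 6.83% of 10817 genes were and 11% were higher, and Vim lay at the threshold itself. Among cells with Tmem176b 0 of 7 were, where 3.95% of 9421 genes were and 6.08% were higher, and the member median was -0.23 against 0.06 over all genes. Both comparisons use the same libraries. Thinned cells with Tmem176b differed more by share. S100a4 was read in 74.4% of KO-labelled and 82.4% of Tcrg-V6 cells, S100a6 in 83.2% and 94.8% and Lgals1 in 78.2% and 84.9%. S100a13 went the other way, at 43.3% and 39.8%. Fewer than 5 UMIs of the members were found in 11.1% and 2.62% of these cells. Median depths were 4542 and 3726 UMIs, and handling genes summed to 4554 and 4972 CPM.

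Against WT Tcrg-V4 cells, all 7 members were higher by CPM in KO-labelled cells, by less than 2-fold. Over all cells the log2 ratios ran from 0.28 for S100a6 (0.20 to 0.35) to 0.47 for S100a4 (0.35 to 0.60), with a median of 0.39 against 0.07 for all genes. None of the 7 passed 2-fold, where 4.88% of 10765 genes did and 3.87% were lower by that fold. Among cells with Tmem176b the median was 0.57 against 0.10, from 0.26 for S100a10 (0.15 to 0.37) to 0.77 for S100a4 (0.63 to 0.91). There 0 of 7 passed 2-fold, where 7.65% of 8911 genes did and 2.83% were lower. Among cells with Ly6c2 the median was 0.74 against 0.11, S100a4 being at 0.94 (0.52 to 1.39) and S100a10 at 0.79 (0.60 to 0.98). By these ratios 0 of 7 passed 2-fold, where 6.92% of 8237 genes did and 2.44% were lower. The S100a4 interval, from 49 UMIs on the Tcrg-V4 side, reached past 2-fold, so a difference of that size is not excluded. Myeloid markers summed to 905 CPM in these Tcrg-V4 cells and to 115 CPM in these KO-labelled cells.

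**Figure D4:**
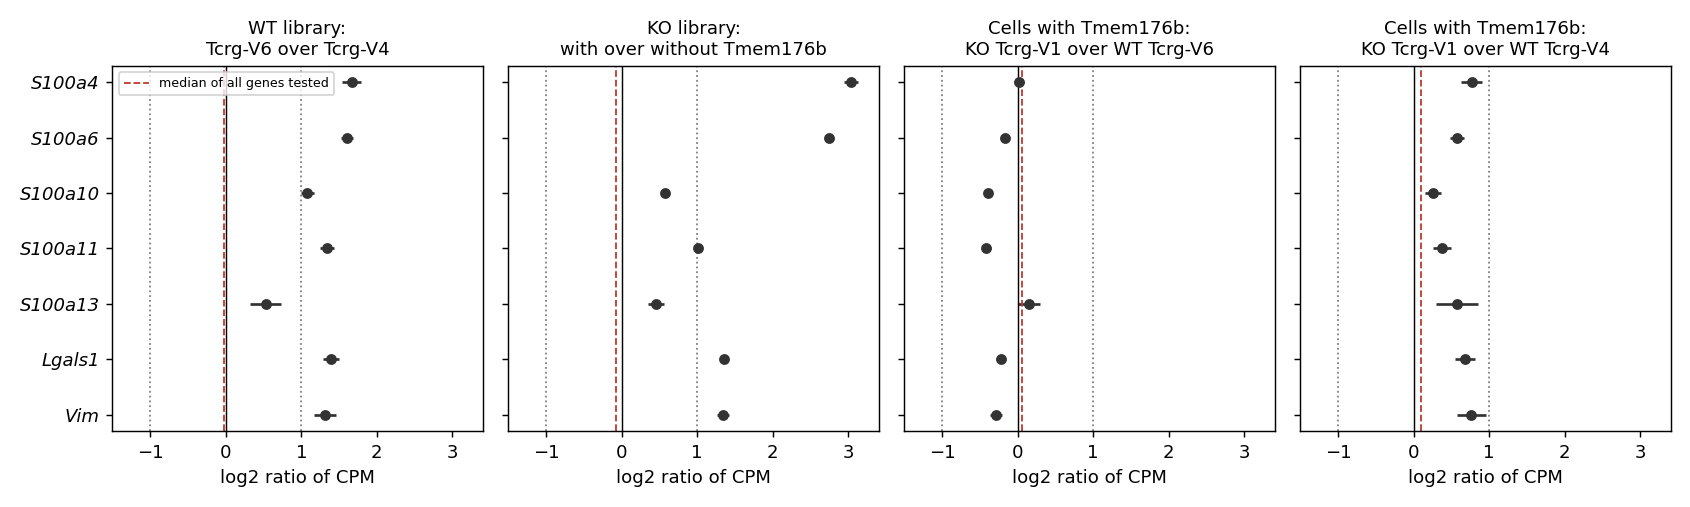
Log2 ratio of CPM (horizontal axis) for each member in 4 comparisons, with 95% intervals of counting error as bars. Dashed red lines give the median of all genes compared, and dotted lines mark 2-fold. With Tmem176b, KO-labelled cells lie within 0.42 of Tcrg-V6 cells for every member and above Tcrg-V4 cells for every member.

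Ly6c2 cells had low levels of most members. In WT Tcrg-V4 cells, 106 with and 318 without Ly6c2, S100a4 had 94.6 and 487 CPM, which is -2.37 on the log2 scale (-2.82 to -1.94), and S100a6 had 332 and 1161 CPM, which is -1.81 (-2.04 to -1.58). Lgals1 was at -1.14, S100a10 at -1.13 and S100a11 at -1.11. These 5 of 7 members were at least 2-fold lower, where 7.83% of 6272 genes were and 2.06% were higher, and Vim was at -0.83 and S100a13 at -0.13 (-0.51 to 0.25). In KO-labelled cells, 623 with and 2257 without Ly6c2, S100a4 had 181 and 607 CPM, which is -1.74 (-1.87 to -1.62) and S100a6 at -1.33 (-1.41 to -1.26), and these 2 of 7 passed 2-fold, where 4.17% of 10540 genes did and 1.70% were higher. Myeloid markers summed to 115 CPM in KO-labelled cells with Ly6c2 (11 of 12 read, 207 of 368 UMIs from 1 cell) and to 11.2 CPM without it. With cells of other lineages left out the member median there was -0.64 and S100a4 was at -1.75. The KO-labelled difference changed with the cells on the other side. Restricted to cells without Tmem176b and Ccr9 the S100a4 ratio was -0.43, S100a6 was at 0.089 and Vim at 0.20, and the member median was -0.095 in place of -0.61. With the same restriction in Tcrg-V4 cells S100a4 was at -2.0, S100a6 at -1.06 and the median at -0.85 in place of -1.13. Myeloid markers summed to 905 CPM in Tcrg-V4 cells with Ly6c2, with 6 of 12 read, and 4 of the 106 cells had at least 2 of them, against 20.2 CPM without Ly6c2. The median depth was 4577 UMIs with and 3272.5 UMIs without Ly6c2. With cells of other lineages left out the median was -1.15 and S100a4 was at -2.87.

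In KO-labelled cells the members differed by less than 2-fold by Ccr9. In 618 KO-labelled cells with and 2262 without Ccr9, the log2 ratios ran from -0.35 for S100a6 (-0.41 to -0.29) to 0.16 for S100a10 (0.10 to 0.21). S100a4 was at -0.09 (-0.17 to -0.01) and S100a11 at 0.02 (-0.04 to 0.08). None of the 7 passed 2-fold, where 0.664% of 10540 genes were higher and 1.55% were lower by that fold. Of the cells with Ccr9, 219 also had Tmem176b, and with both Tmem176b and Ly6c2 left out on both sides the median was 0.024 in place of -0.09. The 2 sides of the Ccr9 split differed in depth, with medians of 5025 and 3996 UMIs. In Tcrg-V6 cells Lgals1 had 590 CPM (466 to 736) in the 25 cells with and 1473 CPM (1424 to 1523) in the 605 without Ccr9. The other members were also lower with it, but all genes were not compared over this split. The 2 sides had median depths of 4365 and 3624 UMIs, and their myeloid markers summed to 98.3 and 6.92 CPM. In Tcrg-V4 cells Lgals1 had 724 CPM (638 to 819) in 80 cells with and 495 CPM (458 to 535) in 344 without Ccr9. Its median over cells hardly differed, at 2.99 and 2.78 UMIs per 10000. S100a4 (416 and 351 CPM), S100a10 (1024 and 834) and Vim (376 and 301) were also higher there with Ccr9. S100a6 (877 and 909), S100a11 (659 in both) and S100a13 (170 and 176) were not, and all genes were not compared over this split either.

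Ordered over the 11 states of at least 50 cells, S100a4 spanned 20.3-fold. It was highest in KO-labelled cells with only Tmem176b, at 1354 CPM (1312 to 1397), followed by Tcrg-V6 cells with only Tmem176b at 1251 CPM (1203 to 1301). Next came Tcrg-V6 cells with none of the transcripts (846), KO-labelled cells with several (776) and Tcrg-V4 cells with only Tmem176b (716) or with several (603), and none of these 4 differed from its neighbour among them beyond counting error. Tcrg-V4 cells with none came below them at 267 CPM and differed from both neighbours. KO-labelled cells with none (163) and with only Ccr9 (155) did not differ, and Tcrg-V4 cells with only Ly6c2 were lowest at 66.6 CPM (44.2 to 96.2). S100a6 spanned 10.7-fold. Its highest levels, 2936 CPM in Tcrg-V6 and 2917 CPM in KO-labelled cells with only Tmem176b, did not differ beyond counting error. For Lgals1 the span was 6.30-fold and for S100a11 5.28-fold, and for both the Tcrg-V6 cells with only Tmem176b were highest, at 1527 and 1796 CPM. Vim spanned 4.47-fold and S100a10 4.34-fold. S100a10 had its highest level, 1939 CPM (1738 to 2158), in Tcrg-V6 cells with none of the transcripts, which overlapped the 1923 CPM of Tcrg-V6 cells with only Tmem176b. S100a13 spanned 1.96-fold, and of its 10 pairs of neighbours only KO-labelled cells with several and with none differed, at 254 and 215 CPM.

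The patterns of the members were alike over these 11 states, as a description in which the states share libraries and differ in depth. Pearson's r of log2(CPM + 10) was 0.98 between S100a4 and S100a6 and between Lgals1 and S100a11, and 0.97 between Lgals1 and Vim. S100a13 stood apart, with r from 0.53 to 0.68 to the other members. Within KO-labelled cells, the per-cell Spearman rho between S100a4 and S100a6 at 2000 UMIs was 0.66 over 2753 cells. It was 0.55 over the 889 cells with Tmem176b and 0.34 over the 1864 without it. Within Tcrg-V6 cells the highest rho between members was 0.53, for S100a6 and Lgals1, over 591 cells.

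Among 4719 genes with at least 50 CPM in 1 or more states, the genes most like S100a4 in pattern were Ddit4 (r = 0.989), the chemokine receptor Ccr2 (0.984) and Rbpms2 (0.984). Ccr2 (0.981) and the leukotriene receptor Ltb4r1 (0.979) were among those most like S100a6. For S100a10 they were Fam129a (0.984), Smpdl3a (0.974) and Oaz1 (0.967), and for S100a11 Smpdl3a (0.987), the dynactin subunit Dctn1 (0.981) and the retinoic acid receptor Rara (0.976). Lgals1 was most like Sbds (0.990), the chemokine receptor Cxcr6 (0.986) and the nuclear receptor Rora (0.979). Vim was most like Rora (0.987), the endoplasmic chaperone Hsp90b1 (0.973) and Krt83 (0.969). S100a13 had its highest values with Hacd3 (0.907), Emc4 (0.903) and Nucb1 (0.903).

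The other S100 genes were close to absent. Of 13 further genes, 12 of the family and the binding protein S100pbp, only S100a1 and S100pbp reached 30 UMIs in any comparison. S100a1 had 53 UMIs in all WT cells and 99 in all KO-labelled cells, and was higher in KO-labelled cells with Tmem176b, at a log2 ratio of 1.71 (0.89 to 2.56). S100a8 and S100a9, the neutrophil calprotectin subunits, had 5 and 23 UMIs in WT and 2 and 8 UMIs in KO-labelled cells. S100a2, S100a7a, S100a16 and S100z had no UMI in either library, which allows up to 3 UMIs. S100a5, which lies between S100a4 and S100a6, had 0 UMIs in WT and 2 in KO-labelled cells.

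Of 9 galectin genes, 4 were compared between Tcrg-V6 and Tcrg-V4 cells. Lgals3bp, a galectin-3 ligand, was higher in Tcrg-V6 cells at 1.10 (0.79 to 1.42) and Lgals9 lower at -1.12 (-1.43 to -0.81). These were 1 of 4 in each direction, where 5.53% of all genes compared were higher and 5.28% lower. Between KO-labelled cells with and without Tmem176b, 1 of 5 was at least 2-fold higher and 0 lower, where 6.37% and 5.19% of all genes were. This was Lgals3, at 1.90 (1.72 to 2.08). By Ly6c2, 2 of 5 were at least 2-fold lower, where 4.17% of all genes were. Lgals3 was at -1.11 with over without Ly6c2, with Tmem176b cells kept on both sides. In Tcrg-V4 cells its Tmem176b ratio was 0.02 with an interval from -0.56 to 0.58, beside 0.93 (0.74 to 1.12) for Lgals1. Lgals7 had 70 UMIs in KO-labelled against 2 in Tcrg-V6 cells, a log2 ratio of 2.66 with an interval from 0.75 to 5.73. Against the 20 UMIs of Tcrg-V4 cells it was at -1.22 (-1.96 to -0.43).

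Among 17 annexins and known S100 partners, 11 were compared. With Tmem176b in KO-labelled cells 4 of the 11 were at least 2-fold higher and 0 lower, where 6.37% and 5.19% of all genes compared were. These were Anxa1 at 3.21 (2.73 to 3.72), the scaffold Ahnak at 1.66 (1.59 to 1.74), Anxa4 at 1.27 (0.74 to 1.80) and Anxa5 at 1.19 (1.02 to 1.36). Anxa2, the partner of S100a10, was at 0.28 (0.17 to 0.38), beside 0.57 for S100a10, and in Tcrg-V4 cells with Ly6c2 Anxa2 was at 1.08 (0.77 to 1.39) where S100a10 was at -1.13. The S100a4 partner Myh9 was at -0.26 (-0.31 to -0.20) and the S100a6 partner Cacybp at 0.05 (-0.08 to 0.17). Between Tcrg-V6 and Tcrg-V4 cells 2 of 11 were higher, Anxa1 at 1.25 (0.63 to 1.91) and Anxa5 at 1.16 (0.88 to 1.44), where 5.53% of all genes compared were, with Anxa2 at 0.91 (0.73 to 1.09) and Ahnak at 0.85 (0.73 to 0.96). In KO-labelled against Tcrg-V6 cells Anxa5 (-1.18), Ahnak (-1.16) and Anxa1 (-1.14) were lower, where 6.83% of all genes were, and among cells with Tmem176b none of the 11 passed 2-fold, where 6.08% of genes were higher and 3.95% lower.

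Of 31 cytoskeletal genes, 26 were compared. The actin-capping gene Capg had the direction of the members, at 2.44 (2.19 to 2.69) in Tcrg-V6 over Tcrg-V4 cells, 3.1 (2.91 to 3.29) with Tmem176b and -2.20 (-2.52 to -1.89) with Ly6c2 in KO-labelled cells. By Ly6c2 4.17% of all genes were at least 2-fold lower. For Capg that split was not restricted to cells without Tmem176b and Ccr9, which changed the member median. The lamin genes Lmna, at 1.0 (0.85 to 1.16), and Lmnb1, at 1.37 (1.12 to 1.63), were the other 2 of 3 at least 2-fold higher in Tcrg-V6 cells, with 0 lower, where 5.53% and 5.28% of all genes were. Lmna was also at 2.0 (1.90 to 2.10) with Tmem176b in KO-labelled cells, where Capg and Lmna were higher and the tubulin Tuba1a was lower, at -1.20 (-1.28 to -1.12), where 6.37% of all genes were higher and 5.19% lower. In KO-labelled against Tcrg-V6 cells Tuba1a (1.20) and Tubb5 (1.51) were higher, and Capg (-2.16), the LIM protein Crip1 (-1.37), Lmnb1 (-1.24) and Lmna (-1.13) were lower, where 11% and 6.83% of all genes were. The list median was 0.02 with Tmem176b, against -0.08 for all genes.

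Receptors and surface proteins were more mixed, with 11 of 12 compared. Cd44, a hyaluronan receptor of activated T cells, was at 1.63 (1.39 to 1.87) in Tcrg-V6 over Tcrg-V4 cells, at 2.54 (2.36 to 2.73) with Tmem176b and at -1.84 (-1.97 to -1.71) in KO-labelled over Tcrg-V6 cells. The integrin gene Itgb1 was also higher in Tcrg-V6 than in Tcrg-V4 cells, at 1.17 (0.91 to 1.45). Ptprc, Itgae, Cd2 and Cd7 were lower there, at -1.01, -1.19, -1.39 and -1.65, where 5.53% of all genes were higher and 5.28% lower. With Tmem176b in KO-labelled cells Cd44 and the integrin gene Itgb7, at 1.08 (1.01 to 1.16), were higher and none was lower, where 6.37% and 5.19% of all genes were. Ptprc and Cd7, glycoproteins that galectin-1 is known to bind, were at -0.75 (-0.81 to -0.70) and -0.80 (-0.89 to -0.72) there, opposite in sign to Lgals1.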

How the data were processed

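The deposited matrices hold counts of UMIs per gene and cell barcode. The authors made these counts with Cell Ranger on mm10 (version 7.0 in the submitters' processing notes, 7.0.0 in the file header, and an older release in the study's methods), without normalisation. The labels name a 3′ protocol and the study's methods a V(D)J kit, and intron and strand settings were not stated in the sources at hand. Both libraries were filtered as in the study's methods (over 200 and under 4000 genes, under 10% mitochondrial UMIs), removing 15 barcodes of the WT and 54 of the KO-labelled library. No doublet caller was run. Leaving out the 5% deepest cells was an alternative.

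UMIs were summed per cell group and expressed as CPM. Ratios carry exact conditional intervals, levels exact Poisson intervals and shares exact Clopper-Pearson intervals (95%), and a share of 0 is given the limit of 3 counts of its total. A gene was compared with at least 30 UMIs over both sums, and a sum of 0 was set to 3 UMIs. Thinning to 2000 UMIs (seed 0) set aside 380 WT and 828 KO-labelled cells. Likeness used genes with at least 50 CPM in a state and a pseudocount of 10 CPM. Python 3.11.15, numpy 2.4.6, scipy 1.17.1, pandas 2.3.3 and matplotlib 3.10.9 were used. The steps were tested on simulated counts. With 1 library per group no test was run, and intervals cover counting error only. Alternatives changed the cell filter, depth, scaling, weighting, group rule, fold and the cells left out. Members and gene lists were chosen with earlier results of these data known. Named were the members, list genes past 2-fold, Anxa2, Ahnak and Cd44, and the 3 genes most like each member, of which 1 is not reported here. Myh9, Cacybp, the S100 neighbours and Lgals3, Ptprc and Cd7 in comparisons below 2-fold were named for their roles after their values were seen.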

Additional observations from a re-analysis of the deposited data

How the results depend on the processing

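The medians of the 11 comparisons were recomputed under 127 alternatives and kept their direction in 125. The exceptions were both in KO-labelled cells with over without Ccr9, at 0.022 with the deepest cells left out and at 0.024 without the other 2 transcripts, and 2 UMIs of the variable gene gave -0.25 there. Of 889 values of single members 665 stayed within their main interval, 216 moved further and 8 reversed. A reversal was counted only where the main interval excluded 0. Sign changes of members whose interval spanned 0 are not among the 8. With over without Ccr9, S100a4 was at 0.032 as a mean of per-cell CPM, at 0.063 after thinning and at 0.043 without the deepest cells, and Lgals1 at 0.022 without the deepest cells and at 0.069 without the other 2 transcripts. With over without Ly6c2, S100a6 reached 0.089 and Vim 0.20 without the other 2 transcripts. S100a6 in KO-labelled over Tcrg-V6 cells with Tmem176b was at 0.0088 when 2 UMIs of Tmem176b were required. The cause was not tested.

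For Tcrg-V6 over Tcrg-V4 cells the median stayed between 1.27 and 1.42, and for KO-labelled over Tcrg-V4 cells with Ly6c2 between 0.64 and 0.91. For KO-labelled over Tcrg-V6 cells it was -1.04 under median-of-ratios scaling, -0.88 without mitochondrial and ribosomal genes in the total, -1.04 as a mean of per-cell CPM, -1.06 after thinning, -0.81 with 2 UMIs of the variable gene, -0.88 without cells with Y-linked UMIs and -1.05 in KO cells with only Tcrg-V1. For KO-labelled over Tcrg-V4 cells it was 0.26 as a mean of per-cell CPM and 0.26 after thinning. For KO-labelled cells with over without Tmem176b it was 1.42 under median-of-ratios scaling, 1.51 as a mean of per-cell CPM, 1.44 after thinning, 0.98 with 2 UMIs of the variable gene, 1.52 without the deepest cells, 1.47 without the other 2 transcripts, 1.49 with 2 UMIs of Tmem176b and 1.51 in cells with only Tcrg-V1. With over without Ly6c2 it was -0.74 without dividing cells, -0.73 without the deepest cells and -0.095 without the other 2 transcripts.

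In Tcrg-V4 cells with over without Tmem176b it was 1.16 as a mean of per-cell CPM, 1.26 after thinning, 0.57 with 2 UMIs of the variable gene, 1.26 without dividing cells and 1.28 without the deepest cells, and with over without Ly6c2 it was -1.41 after thinning, -1.40 without the deepest cells and -0.85 without the other 2 transcripts. Among cells with Tmem176b, KO-labelled over Tcrg-V6 cells gave -0.16 without dividing cells, -0.16 without cells with Y-linked UMIs, -0.16 without the deepest cells and -0.11 with 2 UMIs of Tmem176b. KO-labelled over Tcrg-V4 cells gave 0.48 under median-of-ratios scaling, 0.68 with 2 UMIs of the variable gene, 0.69 without cells with Y-linked UMIs and 0.68 with 2 UMIs of Tmem176b. The settings with 2 UMIs of Tmem176b and with only Tcrg-V1 were chosen after seeing the data. Without the minimum of 30 UMIs, or at 1.5-fold, the share of genes past the fold was higher in all 11 comparisons, for Tcrg-V6 over Tcrg-V4 cells to 31.1% and 24.5%. No paired analysis was possible because neither group had more than 1 library.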

Other observations

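The 71 WT cells with both a Tcrg-V4 and a Tcrg-V6 UMI entered no comparison. At 2000 UMIs, 69 of them had a median of 19 UMIs of the 7 members (quartiles 10 and 28), beside 18 in cells with only Tcrg-V6 and 5 in cells with only Tcrg-V4. Among cells with at least 2 myeloid genes and no T cell UMI, Vim stood at 3001 CPM in WT and 3293 CPM in KO-labelled cells, from 33 and 18 cells, and Lgals1 at 230 and 484 CPM.

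In KO-labelled cells that carried both Tmem176b and another transcript, the members lay between the states that carry either alone. The median of the 7 members was 8 of 2000 UMIs in 82 cells with Tmem176b and Ly6c2 and 13 in 216 cells with Tmem176b and Ccr9, beside 17 in cells with only Tmem176b, 4 with only Ly6c2 and 5 with only Ccr9. The 83 cells with Tmem176b and Ly6c2 had a median depth of 6102 UMIs and myeloid markers at 582 CPM, against 4388 UMIs and 12.3 CPM in cells with only Tmem176b.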
